A study of Homo sapiens with 5 samples.

Results

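The promoters of the cytoplasmic ribosomal protein genes were examined for peaks of ATF3 and p53 in HCT116, a line of human colon cancer cells. The genes were chosen by name. They were the protein-coding genes whose symbol is RPL or RPS followed by a number, together with RPLP0, RPLP1, RPLP2 and RPSA, and the RPS6K kinases were left out. This gave 82 genes of 20163 protein-coding genes, of which 50 encode proteins of the large subunit (or a close paralogue) and 32 proteins of the small subunit. A promoter peak is a ChIP-seq peak whose centre lies within 2 kb of the transcription start site (TSS) of the gene's canonical transcript. No peak was shared by 2 of the 82 genes, but 23 of them had the TSS of another protein-coding gene within 2 kb. This distance was taken from the centre of the highest-scoring ATF3-CPT promoter peak (library described below), or from the gene's own TSS where there was none. Some of the other genes are read-through models of the member, such as RPL36A-HNRNPH2. A peak near 2 such TSSs cannot be assigned to one of the 2 genes.

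The study has 5 libraries, each condition having been sequenced once. The first group came from a ChIP with an ATF3 antibody. ATF3-Ctrl was from ATF3-WT cells given DMSO, ATF3-CPT from ATF3-WT cells given 1.5 μM of camptothecin (CPT), a topoisomerase I poison that damages DNA, for 4 h, and ATF3-KO from ATF3-KO cells given DMSO. The ATF3-KO line had been made from HCT116 by homologous recombination with an AAV vector. The authors reported no ATF3 expression in it by Western blotting, while the lists do not record its ATF3 level. The others came from a ChIP with a p53 antibody, on p53-WT cells given CPT (p53-CPT) and on p53-KO cells given DMSO (p53-KO). These 2 libraries differ in both genotype and drug, so the effects of the 2 cannot be told apart. All chromatin was fixed with DSG and then formaldehyde.

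The ATF3 libraries held between 12820520 and 15457013 tags, and the p53 libraries 3169743 (p53-CPT) and 1984941 (p53-KO). The lists held 33966 (ATF3-Ctrl), 70702 (ATF3-CPT), 2231 (ATF3-KO), 9211 (p53-CPT) and 7879 (p53-KO) peaks. The level of a peak is its normalized tag count, which the authors scaled to a library of 10000000 tags, and its findPeaks score is a plain number of tags with at most 1 counted per position. Within a library all peaks have the same width, which is nearly equal in both ATF3-WT libraries and larger in ATF3-KO (198 bp), so levels of genes are compared over equal lengths. A list starts at a score of 9 in both ATF3-WT libraries and of 11 in ATF3-KO, and weaker binding was not detectable. Intervals are 95% intervals. Those of shares are Wilson intervals, which treat the genes as independent draws. Those of levels cover the counting error of 1 library, and those of ratios the counting error of both libraries compared. None covers the spread between cultures. Because no condition was repeated, no difference below was tested. Positions are given in bp from the TSS on the strand of the gene, with a minus sign for upstream.

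Ribosomal protein genes are transcribed at a high and coordinated rate in growing cells. Most of their mRNAs start with a cytosine in a pyrimidine tract (the TOP motif), through which their translation follows nutrient and mTOR signalling, and their promoters are compact, rich in CpG and often hold ETS-family and YY1 sites. ATF3 is a stress-induced bZIP factor that binds the ATF/CRE element and, with other bZIP proteins, the AP-1 element. p53 is itself controlled by free ribosomal proteins, several of which bind its ubiquitin ligase MDM2.

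The start sites show what these promoters have in common. Several typical members and some paralogues with another kind of start are shown in GRCh37 coordinates, on the strand of the gene. The TSS is the sixteenth base, and the capitals mark CTTTC or CTTTT, the letters searched for.
RPLP2 (chr11:809952-809981, plus strand): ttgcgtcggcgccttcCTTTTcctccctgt
RPL18 (chr19:49122421-49122450, minus strand): accccagcccgttctctCTTTCcggacctg
RPS19 (chr19:42364310-42364339, plus strand): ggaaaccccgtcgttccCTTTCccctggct
RPL5 (chr1:93297582-93297611, plus strand): cgcaagggctgtggccCTTTTcccaccccc
RPS27L (chr15:63449662-63449691, minus strand): aagttgatgccgagcgcagatcgcttgcag
RPL10L (chr14:47120970-47120999, minus strand): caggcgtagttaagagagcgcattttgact
RPL3L (chr16:2004676-2004705, minus strand): agtcctggccctgccactcgacctctggcg
RPLP2 encodes a protein of the ribosomal stalk, RPL18, RPL5 and RPS19 are core subunit proteins, RPS27L is a p53-inducible paralogue of RPS27, and RPL10L and RPL3L are paralogues expressed mainly in testis and in striated muscle. CTTTC or CTTTT lay on the gene's strand within 20 bases of the TSS in 63 of the 82 members (76.8%), against 8.27% of all protein-coding genes. Of 20 other TOP-type and translation genes, such as EEF1A1, EEF2 and TPT1, 75% had it, and of 78 mitochondrial ribosomal protein genes 8.97%. Of the 5 paralogues, RPL36AL alone had it.

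In the 300 bases from 250 upstream to 50 downstream of the TSS, CGGAAG, the core of many ETS sites, was found on either strand in 48 members (58.5%), against 25.2% of all protein-coding promoters. ATGGCG, the core of YY1 sites, was found in 26 (31.7%), against 14.5%. TATAAA was found in 7 (8.54%), against 9.8%. TGACGTCA, the ATF/CRE core, occurred in 4 (4.88%), against 2.68%, and an AP-1 core (TGACTCA, which is TGAGTCA on the other strand) in 1 (1.22%), against 3.57%. All these words were searched on both strands, and none contains another. The median ratio of observed to expected CpG was 0.91 in the members and 0.77 in all promoters.

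ATF3 peaks were found at most of these promoters. In ATF3-Ctrl, 56 of 82 members (68.3%, 95% Wilson interval 57.60 to 77.35) had a promoter peak, against 36.9% of all protein-coding genes. In ATF3-CPT the number was 69 (84.1%, 74.74 to 90.49), against 51.7%. Of the large subunit, 32 of 50 genes had a peak in ATF3-Ctrl and 41 in ATF3-CPT, and of the small subunit 24 of 32 and 28. Other genes of the translation machinery had shares of like size. In ATF3-CPT, 88.5% of the mitochondrial ribosomal protein genes, 89.3% of 56 initiation factor genes and all 20 of the other TOP genes had a promoter peak. In ATF3-Ctrl these 3 lists reached 61.5%, 69.6% and 80%. With a score of at least 20 required, 23 members (28%) had a peak in ATF3-Ctrl, against 11% of all genes, and 45 members (54.9%) had a peak in ATF3-CPT, against 25.7% of all genes.

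ATF3-KO peaks, which come from cells whose ATF3 gene was disrupted, lay at 23 members (28%, 19.48 to 38.59), against 7.34% of all protein-coding genes. The mitochondrial ribosomal protein genes had 17.9%, the initiation factors 16.1% and the other TOP genes 35%. With a score of at least 20 required, 6 members (7.32%) had an ATF3-KO peak, against 2.06%. The ATF3-KO value is given beside each gene below. Every one of the 23 members also had a peak in both ATF3-WT libraries, as did 1412 of the 1480 genes with an ATF3-KO peak. Of the remaining members, 31 (37.8% of the 82) had a peak in both ATF3-WT libraries and not in ATF3-KO, against 28.2% of all genes. In ATF3-CPT only, 15 (18.3%) had a peak, against 16.3%. RPL37 and RPS25, with scores of 9 and 12, were the 2 (2.44%) with a peak in ATF3-Ctrl only, against 1.69%, and 11 (13.4%) had none in the ATF3-antibody lists, against 46.5%.

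**Figure D1:**
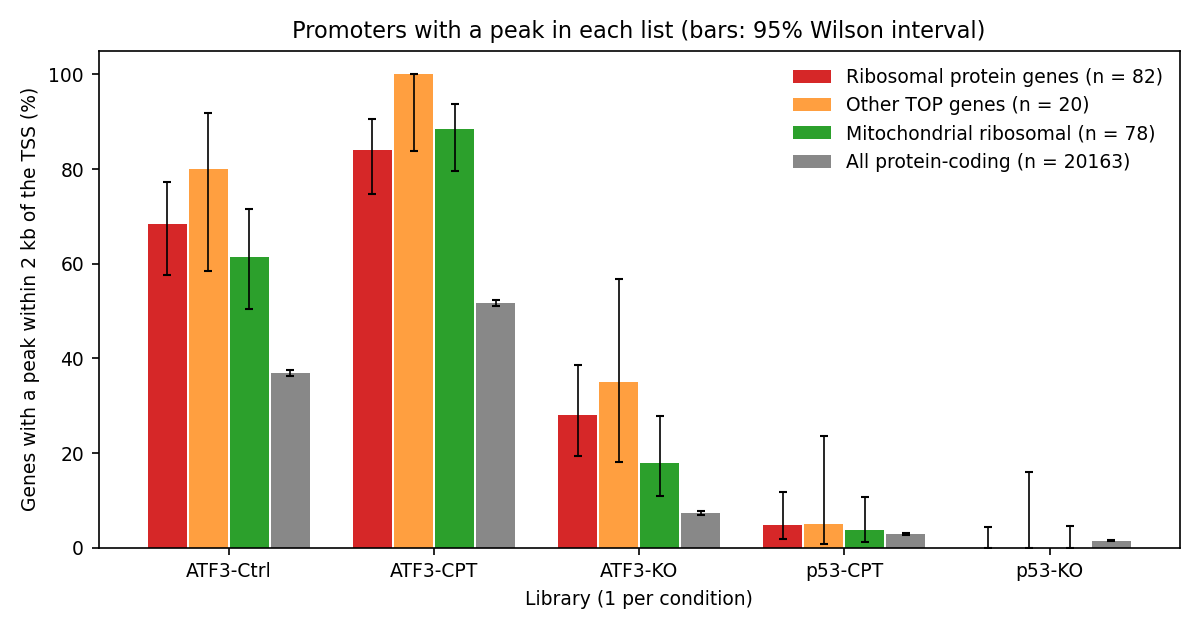
Share of genes with a promoter peak (vertical axis, percent) in each of the 5 libraries, for the 82 ribosomal protein genes, 20 other TOP genes, 78 mitochondrial ribosomal protein genes and all 20163 protein-coding genes. Lines are 95% Wilson intervals, which treat the genes as independent draws. The ribosomal protein genes stand at 68.3%, 84.1% and 28% in the 3 ATF3-antibody libraries, above all genes and within the range of the other 2 lists in ATF3-Ctrl and ATF3-KO.

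The 11 members with no promoter peak in any list included RPL6, RPL17, RPL29, RPL35A, RPL36A, RPS4X and RPS18, which are core proteins of the ribosome, and the paralogues RPL3L, RPL10L and RPL39L. A peak in no list means a score under the list's threshold, not that the promoter was free of ATF3. Peaks of RPL29 and RPL39L lay just outside the window, with an ATF3-CPT peak of RPL29 at -2200 bp (normalized tag count 21.3) and one of RPL39L at 2375 bp (33.0). Just inside the window lay ATF3-CPT peaks of RPL26 at -1986 bp (36.2) and of RPL28 at -1950 bp (5.8). Of the other paralogues, RPS27L had a peak in ATF3-Ctrl (7.7) and in ATF3-CPT (12.3), and RPL36AL in ATF3-CPT only (7.8).

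**Figure D2:**
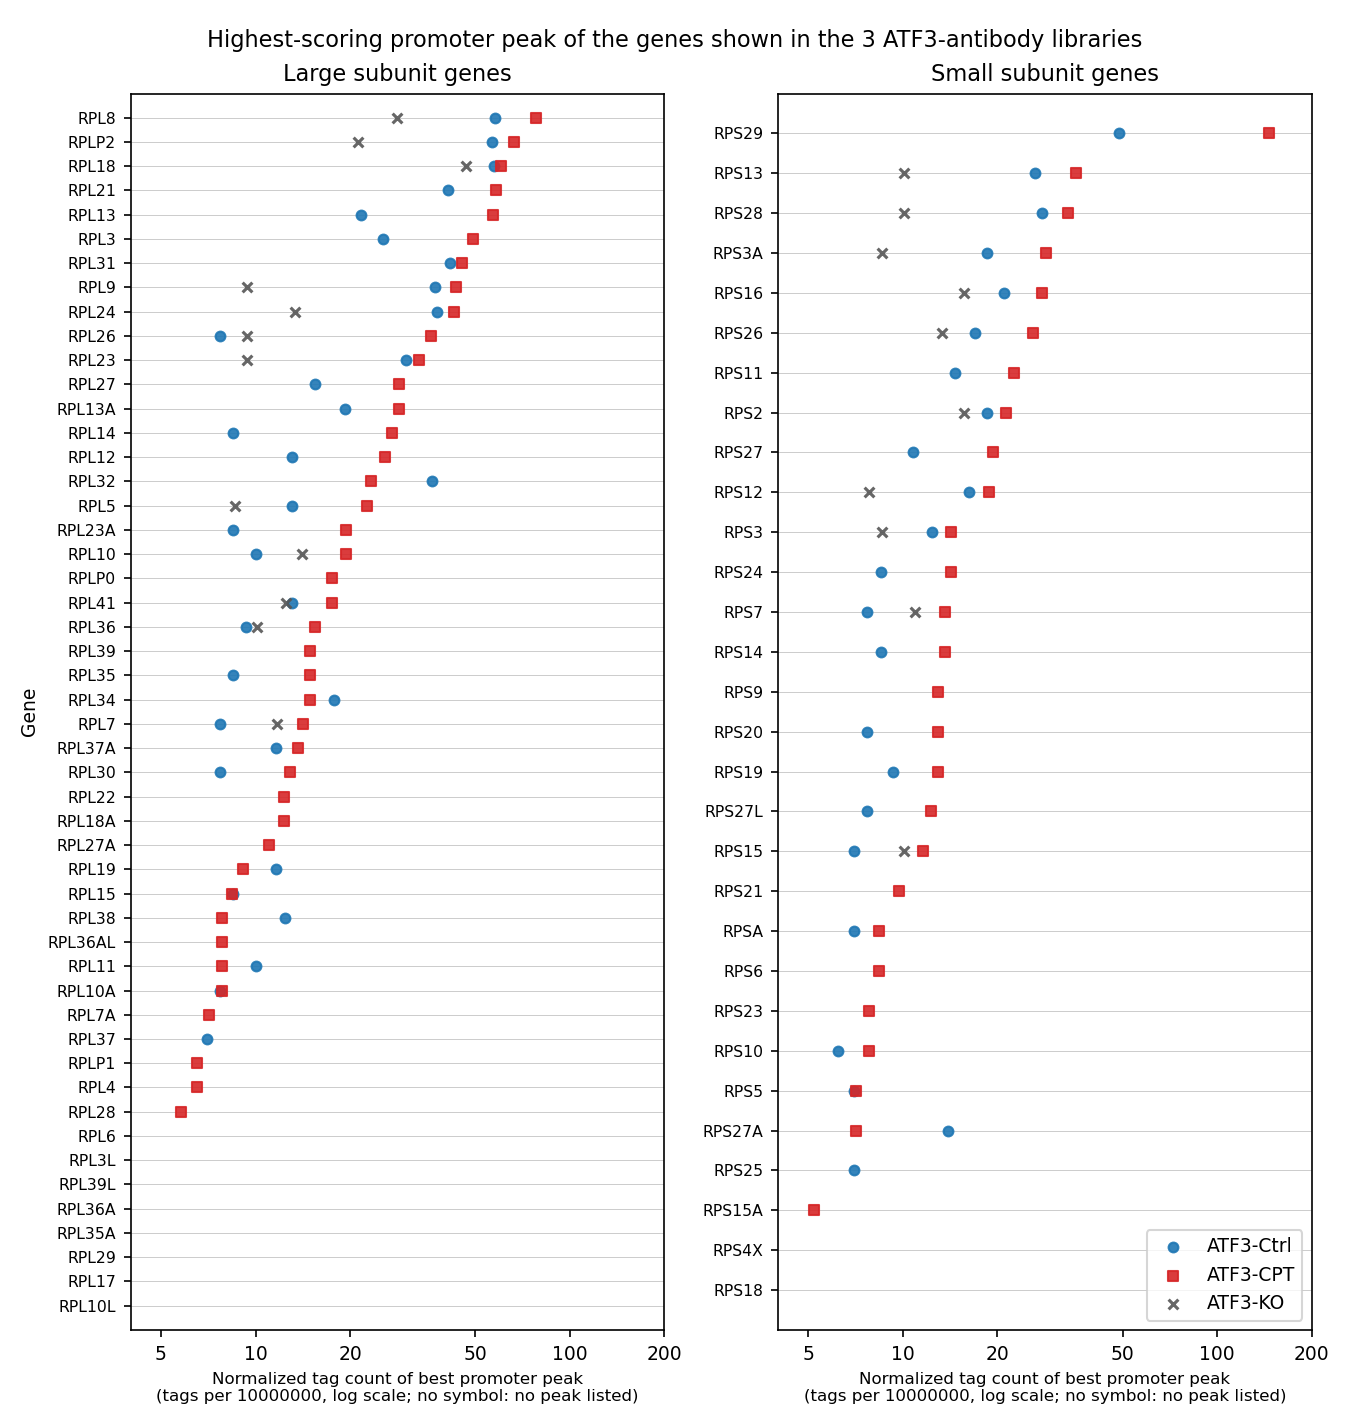
Normalized tag count of the highest-scoring promoter peak (horizontal axis, tags per 10000000 tags, log scale) of large subunit genes (left) and small subunit genes (right) in ATF3-Ctrl, ATF3-CPT and ATF3-KO, 1 library each, with genes sorted by ATF3-CPT. No symbol means no listed peak, and not all of the 82 genes are drawn. RPS29 stands apart in ATF3-CPT at 146.2, and RPL18 has the highest ATF3-KO value at 46.8.

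The levels of the members varied widely. In ATF3-Ctrl the best promoter peaks ran from 6.2 (RPS10) to 57.9 (RPL8) with a median of 12.75, against a median of 10.80 over all genes with a peak. In ATF3-CPT they ran from 5.2 (RPS15A) to 146.2 (RPS29) with a median of 14.90, against 12.90. In ATF3-KO they ran from 7.8 (RPS12) to 46.8 (RPL18) with a median of 10.90, which is also the median of all genes there. RPS29 ranked 34 of 10423 genes in ATF3-CPT, and the next member, RPL8, ranked 242.

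The 4 members with an ATF/CRE core inside their best ATF3-CPT peak were RPS29, RPLP2, RPL18 and RPL3, and each had the same core in its ATF3-Ctrl peak. RPL3 is a protein of the peptidyl transferase region, and RPS29 a small zinc-binding protein of the small subunit. Their sequences are shown on the strand of the gene with the core in capitals, since these are the exact elements that ATF3 is known for.
RPS29 (chr14:50053202-50053309, minus strand): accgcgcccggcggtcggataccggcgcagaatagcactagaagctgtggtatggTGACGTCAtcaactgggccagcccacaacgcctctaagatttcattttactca
RPLP2 (chr11:809819-809926, plus strand): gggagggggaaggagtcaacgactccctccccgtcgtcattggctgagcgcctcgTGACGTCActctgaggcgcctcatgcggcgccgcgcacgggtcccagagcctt
RPL18 (chr19:49122440-49122547, minus strand): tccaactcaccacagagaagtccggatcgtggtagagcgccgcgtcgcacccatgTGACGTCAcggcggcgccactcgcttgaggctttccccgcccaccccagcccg
RPL3 (chr22:39715738-39715845, minus strand): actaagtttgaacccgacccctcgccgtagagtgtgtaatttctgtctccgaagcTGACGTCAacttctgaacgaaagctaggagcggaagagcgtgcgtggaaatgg
The cores lie at -153, -89, -54 and -159 bp, in this order, and each lies inside the gene's ATF3-CPT peak.

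RPS29 had a normalized tag count of 48.7 (exact Poisson interval 37.4 to 62.3) in ATF3-Ctrl and 146.2 (127.8 to 166.6) in ATF3-CPT, with no ATF3-KO peak. The 2 intervals do not overlap. RPL3 had 25.5 (17.5 to 35.8) and 49.2 (38.7 to 61.5), also with no ATF3-KO peak. RPLP2 had 56.4 (44.2 to 70.9) and 66.6 (54.4 to 80.8) and 21.1 (13.9 to 30.6) in ATF3-KO. RPL18 had 57.2 (44.9 to 71.8), 60.2 (48.6 to 73.7) and, in ATF3-KO, 46.8 (35.7 to 60.2), so its 3 intervals overlapped. The ATF3-KO peak of RPL18 was centred at -179 bp, away from the ATF3-Ctrl (-90 bp) and ATF3-CPT (-75 bp) peaks, and did not contain the core. The TSS of SPHK2, a sphingosine kinase gene, lies 253 bp from the centre of the ATF3-CPT peak of RPL18. In ATF3-Ctrl the 4 peaks with the core ran from 25.5 to 57.2 with a median of 52.55, and the 51 member peaks with neither core had a median of 11.60. Over all genes, peaks with the ATF/CRE core had a median of 20.10 and those with neither core 10.00.

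AP-1 cores lay in the best ATF3-CPT peaks of RPL13, RPL23A, RPLP0, RPL30 and RPLP1, of which RPLP0 and RPLP1 encode further stalk proteins. RPL13 had the highest of these peaks. Its peak lay at -1430 bp in ATF3-CPT, with 21.6 in ATF3-Ctrl and 56.9 in ATF3-CPT. RPL13 had a second, lower peak close to its start, at -176 bp with 11.6 in ATF3-Ctrl and at -135 bp with 14.9 in ATF3-CPT. The other 4 AP-1 peaks lay at -667 bp (RPL23A, 19.4), -1268 bp (RPL30, 12.9), 1000 bp (RPLP0, 17.5) and 637 bp (RPLP1, 6.5), all in ATF3-CPT. None of the 5 lay within 250 bp of the TSS, whereas all 4 ATF/CRE cores did.

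In total, 9 of 69 best ATF3-CPT peaks (13%) held an ATF/CRE or AP-1 core in the 200 bp around the centre, against 18.7% of those of all genes. In ATF3-Ctrl it was 5 of 56 (8.93%), against 14.9%, and in ATF3-KO 1 of 23 (4.35%), at RPLP2, against 10.6%. Most member peaks therefore had no exact core. With 1 mismatch allowed, 34 of the 69 had a core (49.3%), against 57.4% of all genes. CGGAAG was found in 30 of the 56 ATF3-Ctrl peaks (53.6%), against 25.9%, and in 12 of the 23 ATF3-KO peaks (52.2%), against 34.3%.

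The peaks sat just upstream of the start. In ATF3-Ctrl the median distance of the best peak's centre from the TSS was -95.00 bp (quartiles -193.5 and -60.75), against -59.00 bp over all genes. It was upstream at 54 of 56 members (96.4%), against 71.8% of all genes, and 44 of the 56 (78.6%) lay within 250 bp, against 63.6%. With the 5′ end of the gene model in place of the canonical TSS, which differ by over 50 bp at 30 members, the median was -39.0 bp. In ATF3-CPT 63 of 69 (91.3%) lay upstream, with a median of -100.0 bp, against 72.7% and -66.00 bp over all genes. In ATF3-KO it was 21 of 23 (91.3%), with a median of -85.00 bp, against 79.7% and -55.00 bp. The 2 exceptions in ATF3-Ctrl were RPL10A, at 463 bp, and RPL41, at 1558 bp. RPL41 encodes the shortest ribosomal protein. The TSS of ZC3H10 lies 119 bp from the centre of the best ATF3-CPT peak of RPL41, which is at 1514 bp. RPL41 also had a lower peak at its start, at -8 bp, with 7.0 in ATF3-Ctrl. The mitochondrial ribosomal protein genes had a median of -61.50 bp in ATF3-Ctrl with 81.2% upstream.

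**Figure D3:**
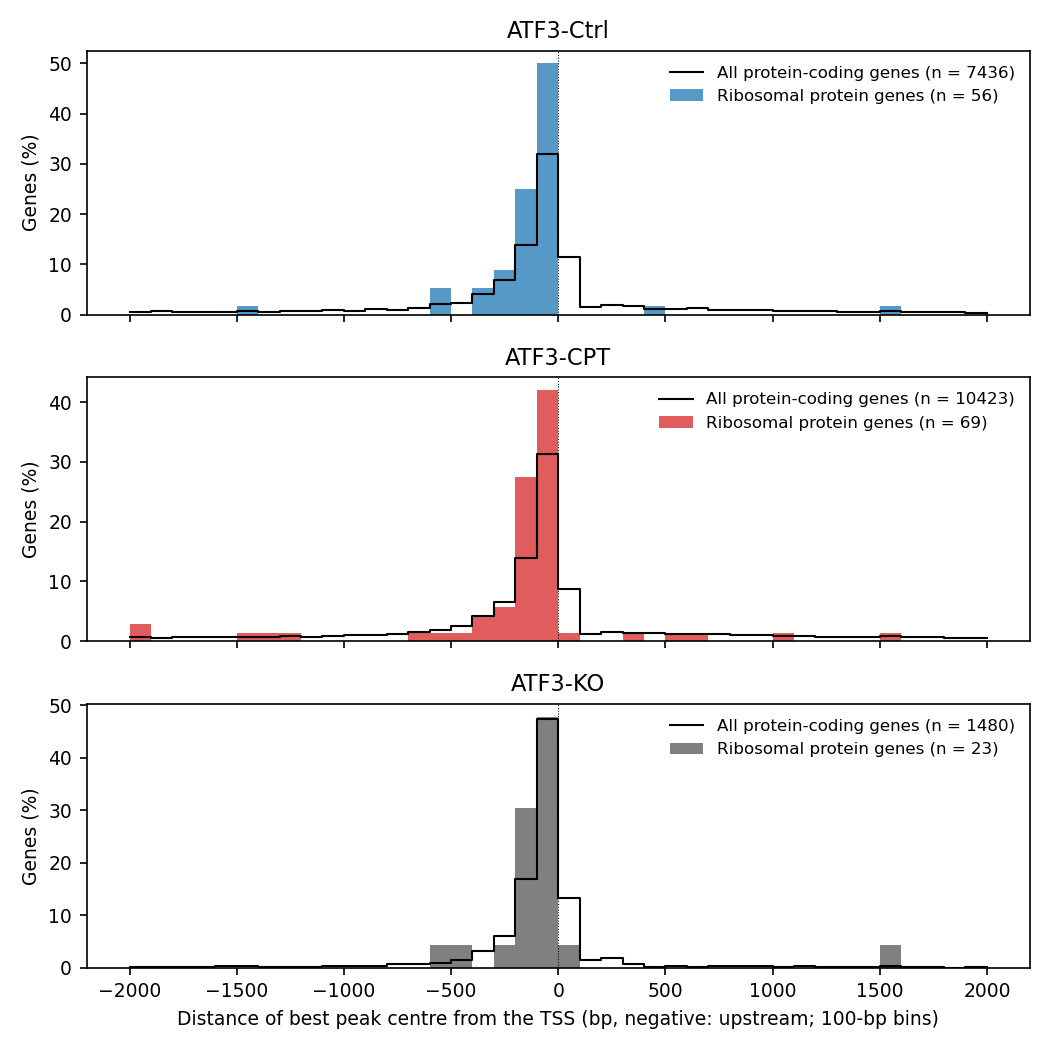
Distance of the highest-scoring promoter peak's centre from the TSS (horizontal axis, bp on the gene's strand, 100-bp bins) in ATF3-Ctrl, ATF3-CPT and ATF3-KO, as the percentage of genes with a peak (vertical axis). Bars are ribosomal protein genes and the line all protein-coding genes. The bars gather just left of the TSS, with 54 of 56, 63 of 69 and 21 of 23 genes upstream.

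How far the signal at these promoters was also seen without ATF3 was asked peak by peak. Of the 56 best ATF3-Ctrl peaks, 23 (41.1%) overlapped an ATF3-KO peak by at least 1 bp, against 17.3% for all genes, and 33 (58.9%, 45.88 to 70.83) were free of one, against 82.7%. Among ATF3-Ctrl peaks with a score of at least 20, 14 of 23 members overlapped (60.9%), against 41.6% for all genes. Among these higher peaks the small subunit had 8 of 9 overlapping and the large subunit 6 of 14. The small subunit exception was RPS29.

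Behind RPL18, the highest ATF3-KO values were those of RPL8, a large subunit protein near the peptidyl transferase centre (28.1, against 57.9 in ATF3-Ctrl and 78.3 in ATF3-CPT), and RPLP2 (21.1). RPS2, at the mRNA entry region of the small subunit, had 15.6 (18.5 in ATF3-Ctrl). RPS16 also had 15.6 (20.9). Next came RPL10, which is needed for subunit joining, with 14 (10.0 in ATF3-Ctrl), and RPL24 and RPS26 with 13.3 each (37.8 and 17.0). RPL41 had 12.5 (13.1). The lowest 13 lay between 7.8 and 11.7.

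The ratio of the ATF3-KO to the ATF3-Ctrl value ran from 0.25 (RPL9) to 1.52 (RPL7) over the 23 members, with a median of 0.6935, against 0.5248 over all genes with overlapping peaks. It was above 1 in 6 of the 23 members, against 167 of 1283 genes. The 6 were RPL7, RPS15, RPS7, RPL10, RPL26 and RPL36, all with ATF3-Ctrl values of 10.0 or less. The ATF3-KO peaks are the wider ones, so the ATF3-KO value gathers tags over a longer stretch. Among the highest ATF3-Ctrl peaks, RPS29 (48.7), RPL31 (41.7), RPL21 (40.9) and RPL32 (36.3) had no ATF3-KO peak.

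Members with and without an ATF3-KO peak had similar shares of the commonest promoter letters. CGGAAG was in 60.9% of the 23 with and 57.6% of the 59 without, and CTTTC or CTTTT at the start in 73.9% and 78%. Copies of ribosomal protein genes are scattered through the genome as processed pseudogenes, and how reads with several matches were treated is not given in the sources used here. Its part in these values was not tested.

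After CPT the ATF3 signal at the members was mostly somewhat higher. Overlapping promoter peaks in both ATF3-WT libraries were found at 50 members. The ratio of ATF3-CPT to ATF3-Ctrl was above 1 at 44 of them (88%), against 72.6% of 6301 genes. The median log2 ratio was 0.43 (quartiles 0.18 and 0.74), against 0.39 over all genes (quartiles -0.04 and 0.93). The median of the members lay close to the general shift between the libraries, and their quartiles were nearer to it. In ATF3-CPT, 12.76% of all tags lay in peaks and 5.599% in ATF3-Ctrl. Scaled to the tags outside peaks, the median log2 ratio was 0.54 at the members and 0.51 over all genes, with 22 members more than 1.5-fold higher and 1 lower. More than 1.5-fold higher were 19 members (38%), against 40.6% of all genes, and more than 1.5-fold lower 3 (6%), against 5.33%. Relative to the shift of all genes, 4 members (8%) were more than 1.5-fold higher and 6 (12%) lower, against 23.1% and 17.8%.

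**Figure D4:**
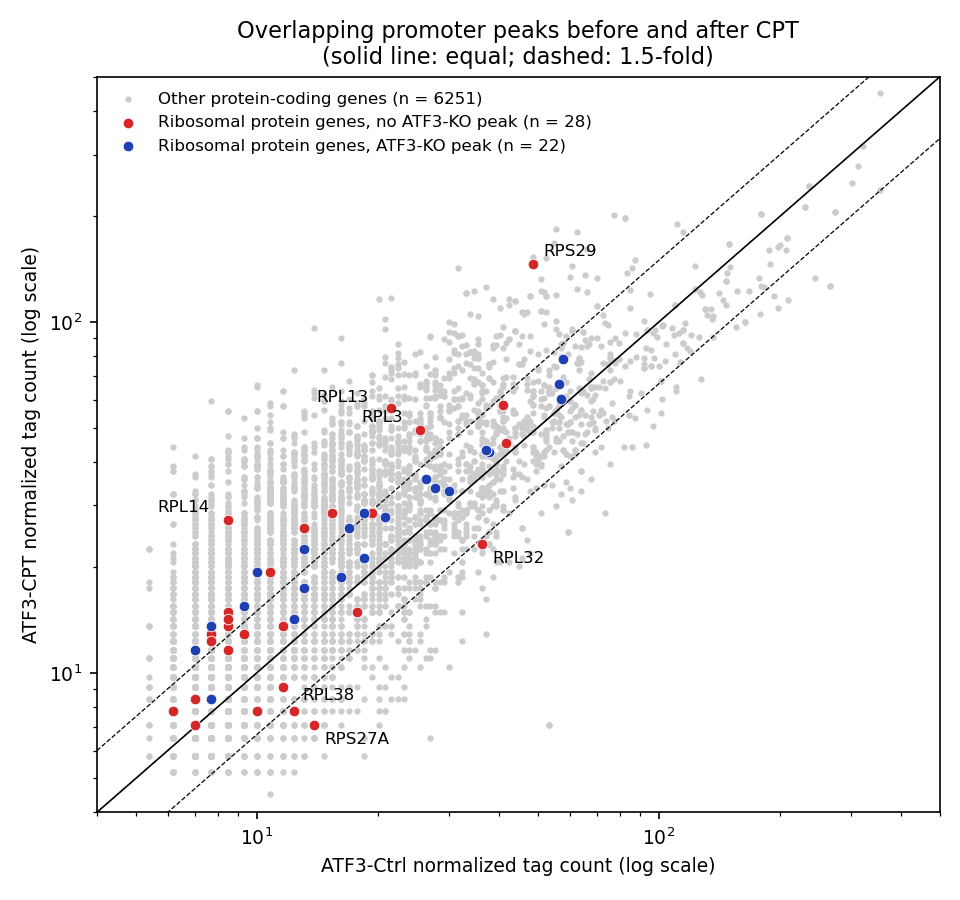
Normalized tag count of overlapping promoter peaks in ATF3-Ctrl (horizontal axis) and ATF3-CPT (vertical axis), both in tags per 10000000 tags on log scales, 1 library each. Coloured points are the 50 ribosomal protein genes, 22 with and 28 without an ATF3-KO peak, and grey points all other genes. The solid line marks equal values and the dashed lines 1.5-fold, and RPS29 lies 3.0-fold above equality.

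The counting interval of the ratio lay above 1 at 8 members (16%), against 26.7% of all genes, and below 1 at none, against 2.73%. The 8 were RPL14, RPS29, RPL13, RPL3, RPL12, RPL27, RPL8 and RPL21, with RPL8 and RPL21 at the border. RPL14 went from 8.5 to 27.2, a ratio of 3.20 (1.62 to 6.89). RPS29 went from 48.7 to 146.2, a ratio of 3.0 (2.26 to 4.04), the narrowest of the high ratios. RPL13 went from 21.6 to 56.9, a ratio of 2.63 (1.70 to 4.18), at its distant AP-1 peak. RPL12, a protein at the base of the stalk, went from 13.1 to 25.9 (1.98, 1.09 to 3.71). The TSS of LRSAM1 lies 38 bp from the centre of the ATF3-CPT peak of RPL12. RPL10 went from 10.0 to 19.4 (1.94, 0.98 to 4.04), and RPL3 had a ratio of 1.93 (1.27 to 3.0).

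The lowest ratio was that of RPS27A, which encodes ubiquitin fused to a small subunit protein. It went from 13.9 to 7.1 (0.51, 0.22 to 1.14). RPL38 went from 12.4 to 7.8 (0.63, 0.27 to 1.42) and RPL32 from 36.3 to 23.3 (0.64, 0.40 to 1.01). RPL11 (10.0 and 7.8) and RPL19 (11.6 and 9.1) both had a ratio of 0.78. All 5 intervals include 1. The 22 members with an ATF3-KO peak had ratios between 1.05 and 1.94 with a median log2 ratio of 0.34, and the 28 without ran from 0.51 to 3.20 with a median of 0.49. Over all genes the medians were 0.22 and 0.46. RPL14, RPS29 and RPL13 at the top and the 5 lowest named above belonged to the members without an ATF3-KO peak.

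A chosen list of 9 members whose proteins are known to bind MDM2 was looked at. The list does not claim to hold every such member, and it was chosen with earlier results of these data known. Its shares therefore apply to these 9 genes only, and other members that bind MDM2 may differ. All 9 had a promoter peak in ATF3-Ctrl and in ATF3-CPT, against 68.3% and 84.1% of the 82 members and 36.9% and 51.7% of all genes. In ATF3-KO 5 had one (RPL5, RPL23, RPL26, RPS3 and RPS7), against 28% of the members and 7.34% of all genes. RPL5 and RPL11 hold MDM2 together with 5S rRNA. RPL5 had 13.1 (7.6 to 21.0) in ATF3-Ctrl, 22.6 (15.8 to 31.5) in ATF3-CPT and 8.6 in ATF3-KO, where its score of 11 was the threshold. RPL11 had 10.0 (5.3 to 17.2), 7.8 (4.0 to 13.6) and no ATF3-KO peak. Their intervals overlapped in ATF3-Ctrl but not in ATF3-CPT. The ratios of ATF3-CPT to ATF3-Ctrl were 1.73 (0.94 to 3.28) and 0.78 (0.32 to 1.84), and both intervals include 1. RPL23 was the highest of the list in ATF3-Ctrl, with 30.1, 33.0 in ATF3-CPT and 9.4 in ATF3-KO. RPS3 had 12.4, 14.2 and 8.6, and RPS7 7.7, 13.6 and 10.9. RPL26 had 7.7 in ATF3-Ctrl at -536 bp and 9.4 in ATF3-KO at -491 bp, and its 36.2 in ATF3-CPT belonged to the peak at the window's edge, beside which ATF3-Ctrl had 17.8 just outside, at -2016 bp. RPS27 had 10.8 and 19.4 without an ATF3-KO peak. A chosen list of 10 members in which mutations cause Diamond-Blackfan anaemia, an inherited failure of red cell formation, is likewise not complete. Of these 10, 8 had a promoter peak in ATF3-Ctrl, 8 in ATF3-CPT and 4 in ATF3-KO. The shares of the 82 members were 68.3%, 84.1% and 28%, and those of all genes 36.9%, 51.7% and 7.34%.

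p53 was found at few of these promoters. In p53-CPT, 4 of 82 members (4.88%, 1.913 to 11.88) had a promoter peak, against 2.95% of all protein-coding genes, and in p53-KO 0 of 82, an upper limit of 4.475% by the Wilson interval, against 1.51%. The 4 fell into 2 pairs. RPS27L had a normalized tag count of 444.8 (374.4 to 524.6) with a score of 110, and ranked 4 of 533 p53-CPT promoter peaks by score. By normalized tag count it ranked 10 of the 595 genes with such a peak. RPS19, a small subunit protein that is the gene most often mutated in Diamond-Blackfan anaemia, had 381.7 (316.8 to 456.1) with a score of 101. It ranked 8 by score and 18 by normalized tag count. RPL18 and RPL31 had 22.1 each (8.9 to 45.5) with a score of 7, the threshold of the list. The lowest value in the p53-KO list is 25.2, so a peak as weak as those of RPL18 and RPL31 could not have been listed there.

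Both strong peaks were centred in intron 1, downstream of the TSS. The RPS27L peak (chr15:63449305-63449623) was centred at 212 bp and the RPS19 peak (chr19:42364351-42364669) at 185 bp. The closest match to the p53 consensus within each is shown in capitals on the strand of the gene, since it is the element the antibody's target is known for.
RPS27L (chr15:63449429-63449458, minus strand): gtggcGGGCATGTAGTGACTTGCCCggtca
RPS19 (chr19:42364490-42364519, plus strand): gcgagCGGCAGGCCCGGACATGCCCggtca
The match at RPS27L had 3 mismatches to the p53 consensus and was centred at 232 bp, and that at RPS19 had 2 and was centred at 180 bp. At most 3 mismatches were found in 115 of the 533 p53-CPT promoter peaks (21.6%), in 3.93% of windows of the same width at all TSSs and in 7 of those at the 82 members (8.54%). The RPL18 and RPL31 peaks had closest matches with 5 and 6 mismatches, and both overlapped ATF3-Ctrl and ATF3-CPT peaks.

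At RPS27L the ATF3 peaks were centred at -45 bp with 7.7 in ATF3-Ctrl and at -26 bp with 12.3 in ATF3-CPT, and neither overlapped the p53 peak. At RPS19 the best ATF3 peaks lay further upstream, at -568 bp with 9.3 in ATF3-Ctrl and at -541 bp with 12.9 in ATF3-CPT. A second pair lay at -33 bp (9.3) and -38 bp (9.1), of which the ATF3-Ctrl peak touched the edge of the p53 peak. In both genes the ATF3 values were below the median of the members with a peak in that library.

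**Figure D5:**
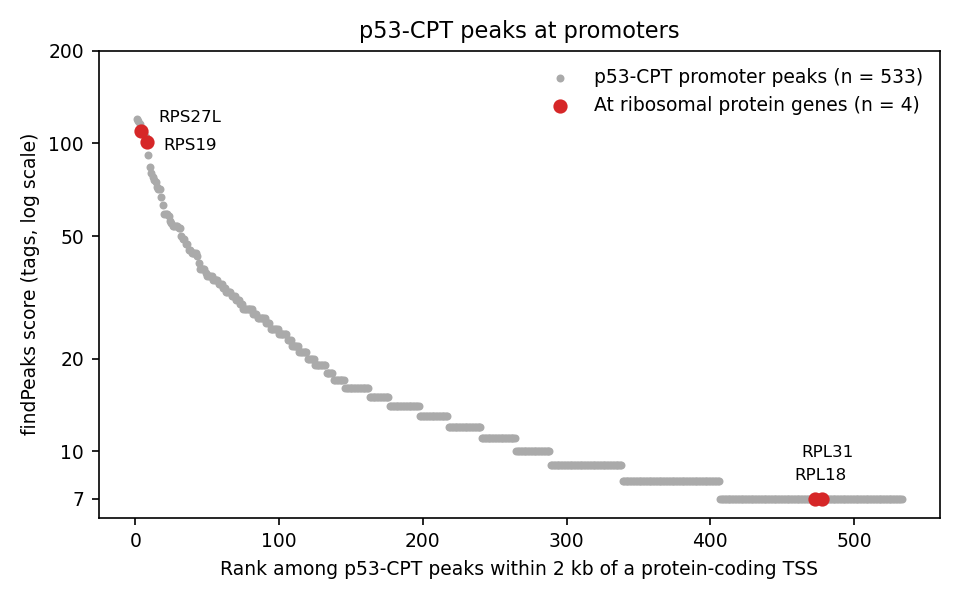
findPeaks score (vertical axis, tags, log scale) of the 533 p53-CPT peaks within 2 kb of a protein-coding TSS, by rank (horizontal axis), from 1 library. RPS27L and RPS19 lie at the top with scores of 110 and 101, and RPL18 and RPL31 at the list's threshold of 7 (ties drawn side by side).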

How the data were processed

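ChIP-seq peak lists of 5 HCT116 libraries were used, 1 per condition, grouped by their labels. The authors aligned reads to hg19 with BWA 0.6.1 and called peaks in each library with HOMER 4.1 (versions from the submitters' processing notes), without an input library in the command. Thresholds in the file headers were an FDR of 0.001, a local fold of 4 over 10 kb and a local p of 1e-04. The normalized tag count is a signal per 10000000 tags that the authors computed, and the score that they deposited counts tags without adjusting for depth. The fold ratios over the local region and of clonal tags, the p-values against it and the central fraction of each peak's tags that the authors deposited were not used. Tags were recovered from the signal (100.0% whole within 0.1 tag), and 3 tags correspond to 2.317 (ATF3-Ctrl), 1.941 (ATF3-CPT), 2.340 (ATF3-KO), 9.464 (p53-CPT) and 15.114 (p53-KO).

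TSSs came from GENCODE 44 mapped to GRCh37, the build of hg19, on chromosomes 1 to 22, X and Y, and sequences from the GRCh37 genome. The best peak has the highest score. The ratio of ATF3-CPT to ATF3-Ctrl uses the best ATF3-Ctrl peak and the highest-scoring ATF3-CPT peak overlapping it, with an exact conditional binomial interval. The scripts (python 3.11.15, numpy 2.4.6, pandas 2.3.3, scipy 1.17.1, pysam 0.24.0) were tested on simulated data.

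Named genes were the members highest in ATF3-Ctrl and ATF3-CPT, those with ATF3-KO or p53 peaks, the 5 highest and 5 lowest ratios, the paralogues, the MDM2-binding list, members with a core in their peak and those with no peak. RPL37, RPS25, RPL27, RPL28, RPL10A, RPS10, RPS15A and, beyond the 10 highest in ATF3-KO, RPL7, RPL36, RPS12 and RPS15 were named after their values were seen. The members and lists were chosen with earlier results of these data known. Alternatives covered the window, the TSS, the score required, the scaling and the motif stringency. Some items that meet the rule for named genes are not reported here, and the counts include them.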

Additional observations from a re-analysis of the deposited data

How the results depend on the processing

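Of 58 alternative values, 43 stayed close to those reported and 15 moved. Only the median log2 ratio and the median distance could change sign, and neither did. The other values are counts and shares, which have no direction. Requiring a score of at least 20 left 23 members in ATF3-Ctrl, 45 in ATF3-CPT, 6 in ATF3-KO and 2 in p53-CPT, and with that score required of both peaks 73.9% of the ATF3-Ctrl peaks were free of an ATF3-KO peak. The median log2 ratio of ATF3-CPT to ATF3-Ctrl at the members was 0.32 with scores per total tags, against 0.34 over all genes. It was 0.03 relative to the median of all genes, and 0.54 per tags outside peaks, against 0.51. With all promoter peaks summed it was 0.54, against 0.60. Whether the members lay above or below all genes thus depended on the setting. Members more than 1.5-fold lower numbered 6 relative to all genes (12%, against 17.8% of all genes) and 1 per tags outside peaks (2%, against 3.57%). Members more than 1.5-fold higher numbered 4 relative to all genes (8%, against 23.1%). Without those overlapping ATF3-KO peaks 28 members were left. Of these, 12 were higher (42.9%, against 44.5%) and 3 lower (10.7%, against 5.78%). The 12 was counted as moved because numbers were compared, not shares. With the 5′ end of the gene model as TSS, the median ATF3-Ctrl distance was -39.0 bp, so the upstream position depends on the TSS chosen. With 1 mismatch, 34 members had a core.

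No paired analysis was possible because each condition has 1 library, and no library was left out in turn for the same reason. Depth limits the p53 lists most, at 3169743 and 1984941 tags.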
